A study of Mus musculus with 6 samples.

Results

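The genes described here build and run the mitotic spindle: kinesins, centromere and kinetochore proteins, the spindle checkpoint, the Aurora kinases and chromosomal passenger complex, spindle and midzone proteins, separase with its inhibitor and the cohesin protectors, and the condensins. They were picked by gene symbol alone, with a fixed list of family names such as Kif, Cenp, Bub, Mad, Aurk, Ska, Haus, Smc and Ncap. The list matched 103 of the 7320 genes in the deposited table. The same symbols took in cytoplasmic kinesins and a few relatives with other roles, which were kept as groups of their own.

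RNA was sequenced from mouse ID8 and KMF ovarian cancer cells, 3 libraries per line, after 5 days of growth as tumorspheres in suspension in PromoCell XF medium with no further treatment. ID8 is a spontaneously transformed C57Bl6 mouse ovarian epithelial line, and KMF (also called ID8-IP) was recovered from ascites of mice carrying ID8 tumors. Both are single cell lines, ID8 clonal and KMF selected in vivo, so the values describe these lines and not ovarian tumors in general. The RNA samples were taken at passages 23, 24 and 35 for ID8 replicates 1 to 3 and at passages 14, 17 and 22 for KMF replicates 1 to 3. No KMF library came from a passage as high as any ID8 library, so passage and line cannot be told apart.

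During mitosis each chromosome is held by its kinetochore, a stack of proteins built on centromeric chromatin that carries the histone Cenpa. The inner layer holds the chromatin, and the outer layer, with the NDC80 complex at its core, binds microtubules. Kinetochores without a microtubule recruit checkpoint proteins, which keep the anaphase-promoting complex from destroying securin, and separase cuts cohesin only once securin is gone. Kinesins move and shorten microtubules, condensins compact the chromosomes, and most of these genes are transcribed late in the cell cycle, so their RNA rises in cells that approach division.

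The libraries held between 23108407 and 33212313 fragments on genes, and the listed genes took 52.8% to 55.9% of them. Only genes that the authors' own test had picked on the same libraries are in the table, with a largest adjusted p-value of 0.0499. Every direction and call below therefore describes listed genes, and counts are to be read against the shares for all fitted genes, which are given with the overall counts. ID8 replicate 3 and KMF replicate 3 stood apart for the genes described here, as shown further on, and the main counts are given with and without them. Of the markers checked, 6 of 10 ovarian epithelial genes were listed, with Wt1 at 94.8 to 118 FPKM in ID8 and 63.6 to 89.95 FPKM in KMF (FPKM scales fragments to gene length and to the size of the library). Of the 6, 5 were lower in KMF, among them Cdh1 by 11.7-fold, Upk3b by 14.7-fold, Krt7 by 5.86-fold and Epcam by 5.38-fold, and Msln was 2.74-fold higher. Their sum, mostly Wt1 and Msln, was 143 to 211 FPKM in ID8 and 147 to 196 FPKM in KMF. Only 1 of 13 leukocyte markers was listed, Cd74, at 1.59 FPKM or less in every library. Among fibroblast markers, 4 of 7 were listed, all lower in KMF, with a summed level of 77.3 to 107 FPKM in ID8 and 13.5 to 25.9 FPKM in KMF. Of 6 endothelial markers 3 were listed, and their sum rose from at most 0.0877 FPKM in ID8 to at least 27.8 FPKM in KMF through Tek, while Kdr had no count in KMF. The part of these shifts in the values below was not tested.

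Of the 103 genes, all passed the filter on low counts, 92 were higher in KMF and 11 were lower (edgeR quasi-likelihood test, Benjamini-Hochberg adjusted p under 0.05, largest adjusted p = 0.0491). Among all 6967 genes fitted, 45.4% were called higher in KMF and 47.5% lower. The median log2 fold change of the 103 genes was 1.69, a 3.22-fold higher level in KMF, against -0.23 over all fitted genes. A difference of at least 2-fold upward was seen for 66 of the 103 genes, where the same held for 18.0% of all fitted genes, and 3 genes were at least 2-fold lower, against 22.5% of all fitted genes. In CPM, counts scaled to the library total, the 3 KMF libraries lay above all 3 ID8 libraries for the 92 higher genes, as they did for 46.3% of all listed genes, and below them for the 11 lower genes, against 50.2% of all listed genes. Together the 103 genes took 0.360%, 0.351% and 0.308% of all fragments in ID8 replicates 1 to 3 and 0.742%, 0.719% and 0.841% in KMF replicates 1 to 3. With both replicate 3 libraries left out, an alternative chosen after seeing the data, 81 genes were called higher and 10 lower, where 34.0% of all genes in that fit were called higher, and the median log2 fold change was 1.40. In bulk RNA, a larger share of dividing cells and more RNA per dividing cell cannot be told apart.

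**Figure D1:**
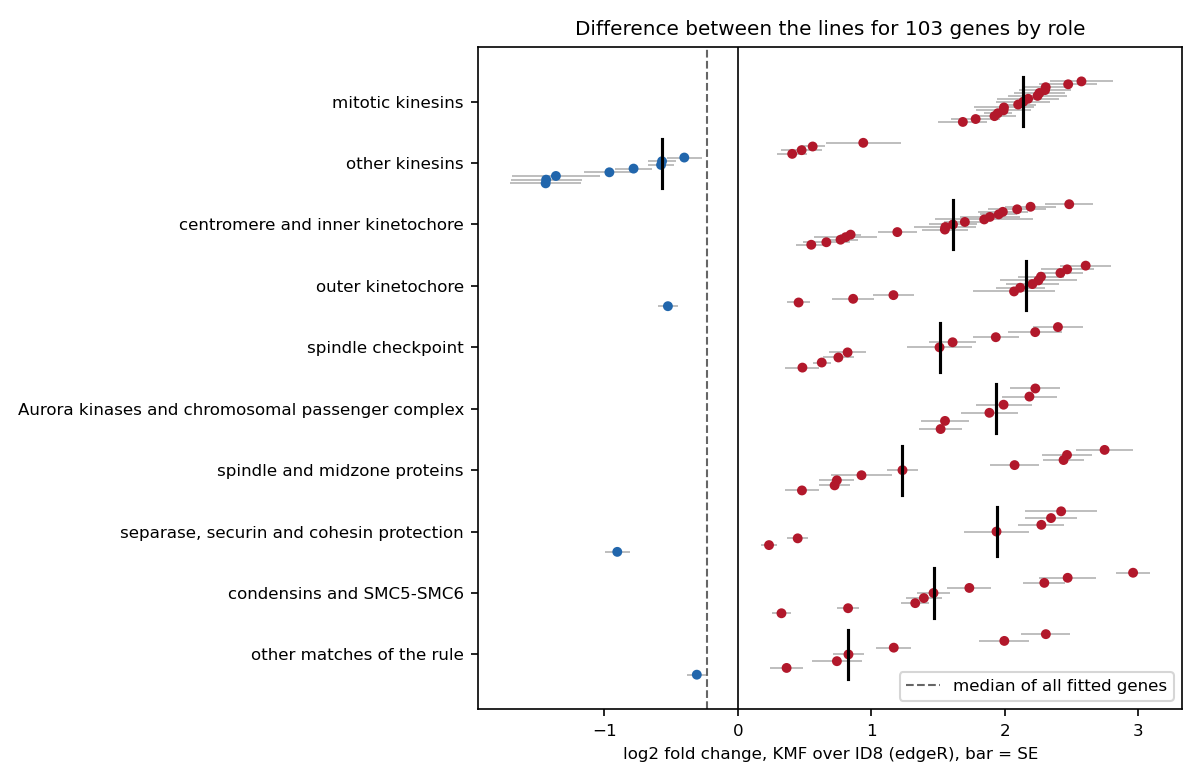
Log2 fold change of KMF over ID8 (horizontal axis, edgeR estimate) for each of the 103 genes grouped by role, with gray bars for the standard error, black strokes for the group median and a dashed line at the median of all fitted genes, -0.23. The 15 mitotic kinesins lie between 1.69 and 2.57, while 8 of the 12 other kinesins lie below 0.

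The genes that were at least 2-fold higher often carried a promoter feature that the choice by symbol did not use. Late cell cycle genes are known to carry the cell cycle genes homology region (CHR, TTTGAA or TTCGAA) close to their start, often next to a CCAAT box bound by NF-Y. Promoters of 300 bases, from 250 before to 50 after the annotated gene start, were read from RefSeq (GRCm38.p6) and both strands were searched, which matched 89 of the 103 genes. The promoters shown here are those of the genes the later sections turn on, with motif bases in capitals (CCAAT reads ATTGG and TTTGAA reads TTCAAA where the motif is on the opposite strand). Positions take the first base of the gene as 1, with no position 0. Smc2 (chr4:52438971-52439270, plus strand) had a CHR at -145 and another at 27, with a CCAAT box at -119. Prc1 (chr7:80294201-80294500, plus strand) had a CCAAT box at -37 and a CHR at -5. Kif22 (chr7:127042371-127042670, minus strand) held a CCAAT box at -54 with a CHR at -17, and a further pair at -233 and -215. In Ttk (chr9:83834439-83834738, plus strand) the CCAAT boxes lay at -65 and -28 and the CHR at 8. In Espl1 (chr15:102296043-102296342, plus strand) the CCAAT box lay at -44 and the CHR at -27.
Smc2: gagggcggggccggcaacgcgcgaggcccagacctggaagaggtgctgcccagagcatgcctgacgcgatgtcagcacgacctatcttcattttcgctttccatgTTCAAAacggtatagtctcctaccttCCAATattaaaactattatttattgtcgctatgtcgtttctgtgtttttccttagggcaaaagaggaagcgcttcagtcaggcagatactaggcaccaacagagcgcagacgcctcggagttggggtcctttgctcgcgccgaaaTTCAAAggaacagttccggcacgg
Prc1: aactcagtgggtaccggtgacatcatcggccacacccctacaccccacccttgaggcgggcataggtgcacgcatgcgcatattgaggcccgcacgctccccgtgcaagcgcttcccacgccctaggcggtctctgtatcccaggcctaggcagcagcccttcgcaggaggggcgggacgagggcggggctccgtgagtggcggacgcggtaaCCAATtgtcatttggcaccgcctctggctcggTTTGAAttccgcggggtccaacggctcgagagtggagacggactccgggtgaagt
Kif22: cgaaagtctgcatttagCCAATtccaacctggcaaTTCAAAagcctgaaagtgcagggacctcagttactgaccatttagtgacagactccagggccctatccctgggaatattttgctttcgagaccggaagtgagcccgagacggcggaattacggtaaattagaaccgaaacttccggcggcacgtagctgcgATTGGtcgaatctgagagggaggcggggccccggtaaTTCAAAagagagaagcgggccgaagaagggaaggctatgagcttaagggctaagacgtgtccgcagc
Ttk: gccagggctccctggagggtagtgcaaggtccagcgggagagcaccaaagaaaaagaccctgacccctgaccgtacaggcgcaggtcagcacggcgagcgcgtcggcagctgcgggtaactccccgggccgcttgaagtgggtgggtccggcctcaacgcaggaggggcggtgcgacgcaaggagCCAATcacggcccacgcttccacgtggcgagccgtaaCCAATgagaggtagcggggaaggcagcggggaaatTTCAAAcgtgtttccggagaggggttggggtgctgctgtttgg
Espl1: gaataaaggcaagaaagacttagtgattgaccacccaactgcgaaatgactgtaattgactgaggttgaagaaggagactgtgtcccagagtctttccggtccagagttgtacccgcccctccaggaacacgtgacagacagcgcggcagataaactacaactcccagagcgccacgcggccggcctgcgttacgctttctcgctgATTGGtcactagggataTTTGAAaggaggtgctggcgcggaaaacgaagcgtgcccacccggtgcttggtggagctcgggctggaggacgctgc

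A further 3 promoters are shown because they held no CHR. Nuf2 (chr1:169531415-169531714, minus strand) had none of the motifs searched, although its gene had the third highest fold change of the 103 genes. Zwint (chr10:72654596-72654895, plus strand) had CCAAT boxes at -37 and 14, and Kif5c (chr2:49619036-49619335, plus strand) had none of the motifs. Both of those genes were lower in KMF.
Nuf2: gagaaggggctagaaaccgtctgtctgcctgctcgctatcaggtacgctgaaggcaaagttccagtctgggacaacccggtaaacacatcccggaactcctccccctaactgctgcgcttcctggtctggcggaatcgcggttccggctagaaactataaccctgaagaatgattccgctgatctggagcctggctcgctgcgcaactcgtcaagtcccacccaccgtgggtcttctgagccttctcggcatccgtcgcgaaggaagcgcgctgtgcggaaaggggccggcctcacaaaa
Zwint: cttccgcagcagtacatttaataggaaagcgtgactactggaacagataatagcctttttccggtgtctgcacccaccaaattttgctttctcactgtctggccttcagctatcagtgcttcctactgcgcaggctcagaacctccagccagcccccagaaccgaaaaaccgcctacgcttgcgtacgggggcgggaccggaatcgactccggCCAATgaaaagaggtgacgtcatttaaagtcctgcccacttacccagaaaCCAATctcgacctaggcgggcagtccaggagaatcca
Kif5c: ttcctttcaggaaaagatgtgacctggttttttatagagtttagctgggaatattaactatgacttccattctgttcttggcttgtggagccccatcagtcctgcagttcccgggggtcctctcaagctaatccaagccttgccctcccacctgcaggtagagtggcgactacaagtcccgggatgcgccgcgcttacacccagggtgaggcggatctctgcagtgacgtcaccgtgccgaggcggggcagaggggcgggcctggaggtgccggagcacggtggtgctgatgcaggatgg

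A CHR was found in 44 of the 89 matched promoters, and those genes had a median log2 fold change of 2.07, against 0.77 for the 45 genes without it. Among genes at least 2-fold higher in KMF, 38 of 56 promoters held a CHR (67.9%), against 6 of the 33 other promoters of the set (18.2%), 13.3% of the other listed genes and 19.2% of all 32851 promoters in the table. A CHR together with a CCAAT box was present in 51.8% of the promoters of genes at least 2-fold higher, 9.09% of the others in the set, 5.83% of the other listed genes and 7.52% of all promoters. Of the 52 CHR matches, 39 lay within 100 bases of the gene start. E2F-type motifs (GCGGGAA or TTTGGCG) did not follow the same order, being in 19.6% of the promoters of genes at least 2-fold higher and 24.2% of the others in the set, against 11.1% of the other listed genes and 5.99% of all promoters. The kinesins divided along the same line: 12 of 14 promoters of mitotic kinesins held a CHR and none of the 10 promoters of other kinesins did. Among the mitotic kinesins, the copies Kifc1 and Kifc5b hold largely the same promoter sequence around the CHR. They were counted apart, here and in the other counts of this paragraph. The RefSeq start lay within 100 bases of the start in the deposited table for 73 of the 89 promoters, and it lay farthest away for Cdca7l, Kif17, Kif2c, Cdca8 and Kif14, by 39572, 11816, 3867, 2394 and 1505 bases. Among the nearer promoters, a restriction chosen after seeing the data, a CHR was held by 9 of 11 of mitotic kinesins, 0 of 9 of other kinesins, 29 of 45 of genes at least 2-fold higher and 6 of 28 of the others. None of the 9 matched promoters of genes lower in KMF held one, while 18 genes at least 2-fold higher also lacked it. These are letter matches, not sites shown to be bound.

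**Figure D2:**
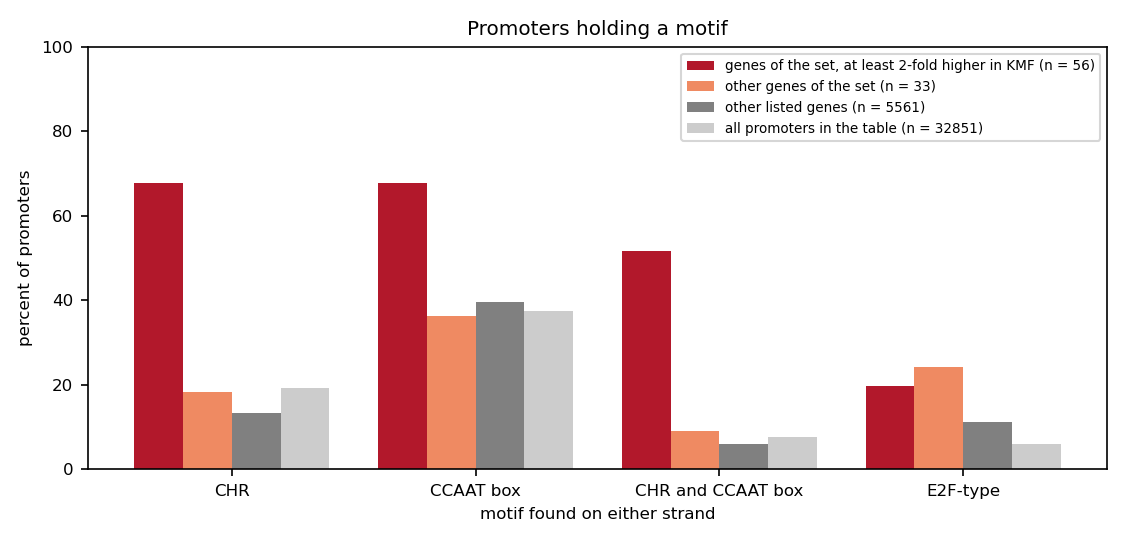
Percent of promoters (vertical axis) that hold each motif on either strand, for genes of the set at least 2-fold higher in KMF, the other genes of the set, the other listed genes and all promoters in the RefSeq table. The CHR was in 67.9% of the first class and in at most 19.2% of each other class, and the E2F-type motifs did not show that order.

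Mitotic kinesins moved as a block. All 15 were higher in KMF, every one at least 2-fold. Their log2 fold changes had a median of 2.14 and a range of only 1.69 to 2.57. Cenpe, the kinetochore motor that carries chromosomes to the metaphase plate, had 2.43, 2.52 and 1.38 FPKM in ID8 and 11.7, 10.4 and 14.7 FPKM in KMF (log2 fold change 2.57 ± 0.24 SE, adjusted p = 0.000137). Kif15, a motor that helps hold the spindle poles apart, went from 1.83, 1.55 and 1.01 FPKM to 7.51, 7.27 and 9.05 FPKM (2.47 ± 0.22, adjusted p = 0.000108). The most abundant member was Kif22, a chromokinesin that pushes chromosome arms away from the poles, at 24.0, 20.5 and 20.4 FPKM in ID8 and 71.9, 81.1 and 90.6 FPKM in KMF (1.95 ± 0.11, adjusted p = 1.82e-05). All 3 genes had their lowest ID8 level in replicate 3 and their highest KMF level in replicate 3.

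The remaining mitotic kinesins were higher in KMF as well. Kif11, which slides antiparallel microtubules to separate the poles, had the smallest log2 fold change of the group, 1.69 ± 0.18, with means of 13.2 ± 3.10 FPKM in ID8 and 41.5 ± 5.24 FPKM in KMF (SD, n = 3). The microtubule depolymerase Kif2c rose by 2.26 on the log2 scale, and Kif18a, which damps chromosome movement at the plate, by 2.10. Of the motors of the midzone and cytokinesis, Kif23, Kif20a and Kif4 rose by 2.18, 1.99 and 1.99. The other 4, Kif14, Kif18b, Kif24 and Kif20b, rose by 1.78 to 2.30, and of these Kif24 is better known from centrioles than from the spindle. With limma on log2(FPKM + 1), which compresses low values, the log2 fold changes of Kif18a, Kif24, Kif14 and Kif15 were 1.32, 1.29, 1.56 and 1.87. Kif20a shares 29.3% of its exon bases with Cdc23 on the opposite strand, and whether counting used strand is not given in the sources used here. Kifc1, a minus-end motor that focuses the poles, and its near-identical copy Kifc5b rose by 1.92 and 2.31, and reads may have been split between them, so each value is uncertain.

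Cytoplasmic and ciliary kinesins went both ways. Of 12, 8 were lower in KMF and 4 higher, where 47.5% of all fitted genes were lower and 45.4% higher, and the median log2 fold change was -0.57. The 3 motors with the largest reductions were Kif17, Kif5c and Kif9. Kif17, a motor of cilia and dendrites, had 0.511, 0.504 and 0.497 FPKM in ID8 and 0.184, 0.163 and 0.192 FPKM in KMF (-1.44 ± 0.27, adjusted p = 0.00373). Kif5c, a conventional kinesin heavy chain best known from neurons, had 6.80, 6.53 and 9.04 FPKM in ID8 and 1.81, 3.83 and 2.38 FPKM in KMF (-1.44 ± 0.26, adjusted p = 0.00357). Kif9, found in motile cilia and sperm tails, was at 1.33, 1.14 and 1.27 FPKM against 0.293, 0.394 and 0.709 FPKM (-1.36 ± 0.33, adjusted p = 0.0131), and that call was lost without KMF replicate 2 (adjusted p over the alternatives 0.000832 to 0.0539). Levels of Kif17 were low throughout, while Kif5c spread about 2-fold among the KMF libraries.

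Kif3a, the motor subunit of the kinesin that builds cilia, fell from 17.2, 14.5 and 15.1 FPKM in ID8 to 9.67, 9.86 and 11.0 FPKM in KMF (-0.58 ± 0.10, adjusted p = 0.00227). Its alternative partner Kif3c fell from 2.14, 2.73 and 2.94 FPKM to 1.56, 1.24 and 1.09 FPKM (-0.96 ± 0.19, adjusted p = 0.00489), though 35.3% of its exon bases are shared with the antisense gene 1110002L01Rik. In ID8 the per-length level of Kif3a was 1.16, 0.956 and 1.57 times that of the spindle motor Kif11, and in KMF it was 0.260, 0.246 and 0.233 times. The ranges of that ratio did not overlap between the lines.

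Kifc3, a minus-end motor at cell junctions, fell from 10.2, 11.5 and 9.66 FPKM to 6.87, 5.09 and 5.83 FPKM (-0.78 ± 0.14, adjusted p = 0.00313). Kif1b, a carrier of mitochondria and synaptic vesicle precursors, fell from 19.7, 17.7 and 18.2 FPKM to 13.8, 11.9 and 10.8 FPKM (-0.57 ± 0.10, adjusted p = 0.0037). Kif21a, which slows microtubule growth, had 12.9, 11.9 and 9.58 FPKM in ID8 and 8.26, 7.55 and 9.52 FPKM in KMF, and the nearest libraries of the lines almost touched (-0.40 ± 0.13, adjusted p = 0.0453). That call was lost in 6 of 17 alternatives, among them those without ID8 replicate 1 or 2 and without KMF replicate 1 or 2, and its adjusted p ran from 0.00705 to 0.172 over the alternatives. On the higher side, Kif1c, a vesicle motor and the most abundant of the group, went from 28.2, 30.9 and 27.4 FPKM to 40.9, 44.6 and 38.6 FPKM (0.56 ± 0.09, adjusted p = 0.00191). The other 3, Kif21b, Kif7 and Kif13a, had log2 fold changes of 0.94, 0.48 and 0.41, none as large as that of any mitotic kinesin. Their calls were lost in 9 of 16, 13 of 17 and 5 of 17 alternatives, with adjusted p up to 0.212, 0.152 and 0.0815.

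**Figure D3:**
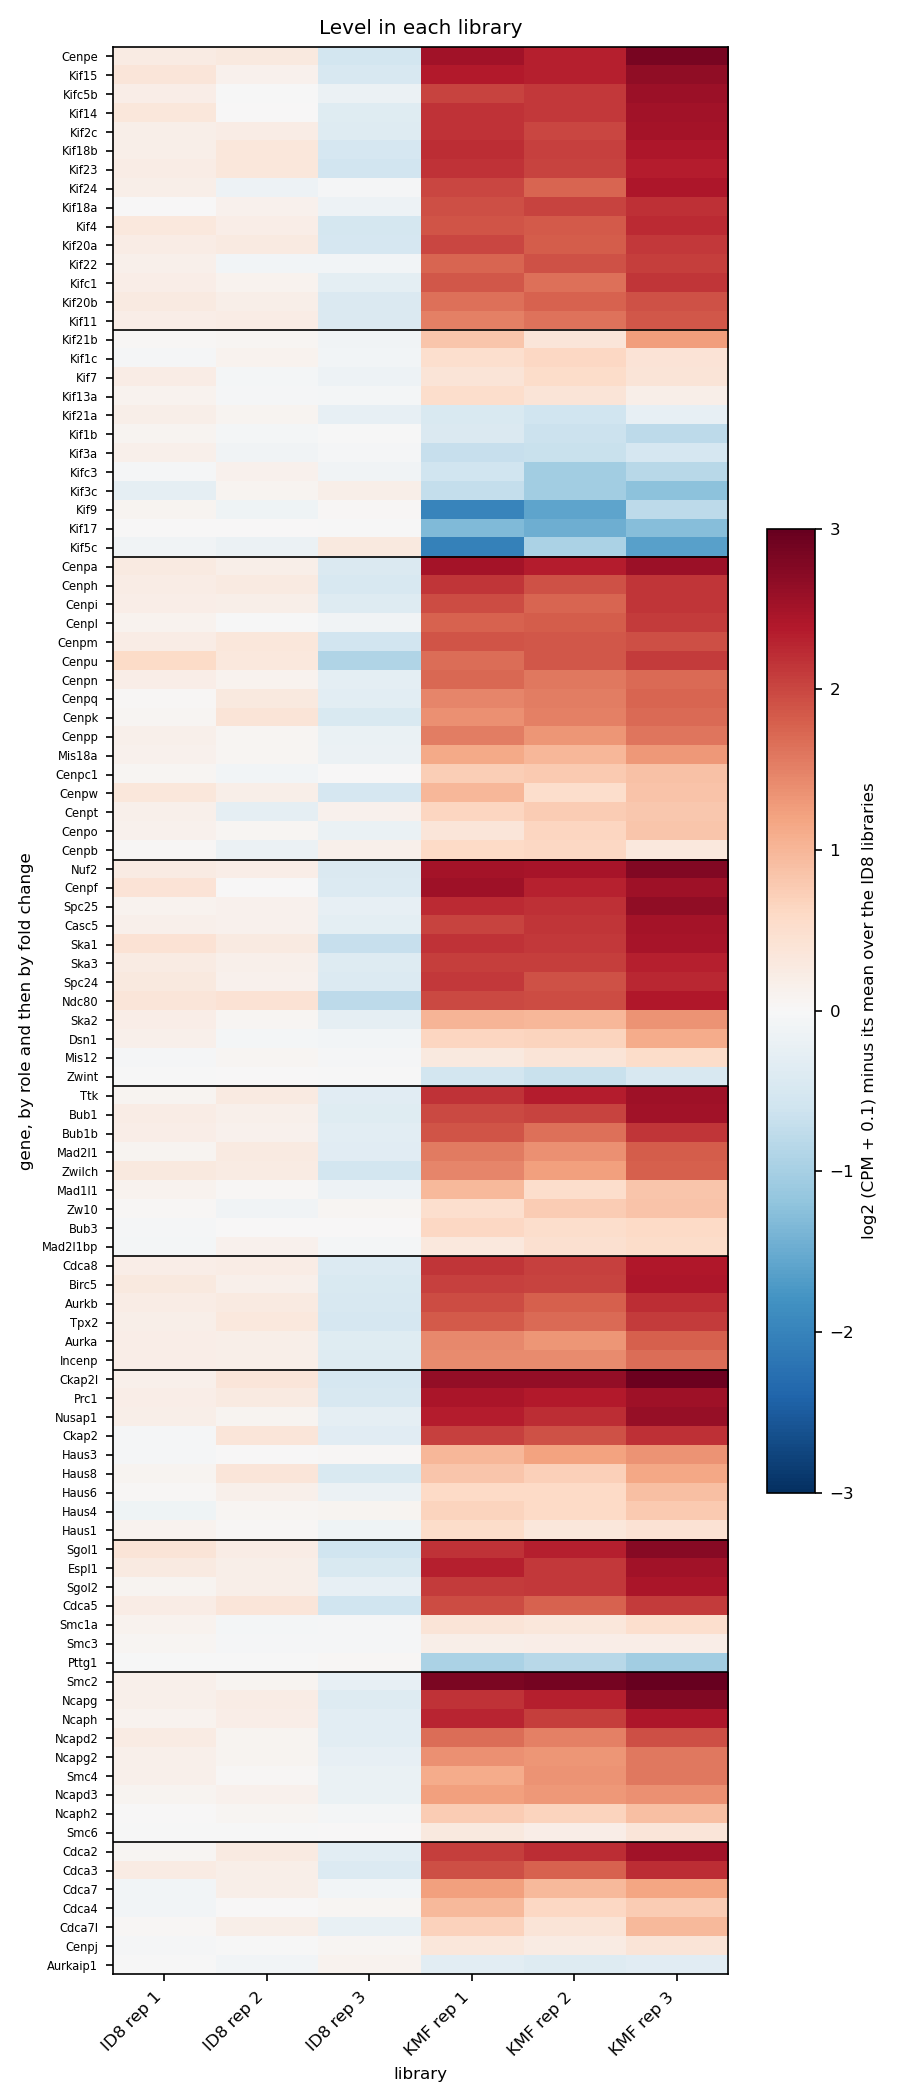
Level of the genes of the set (rows, by role and then by fold change) in each library (columns), as log2 (CPM + 0.1) minus the mean of the ID8 libraries, red for higher and blue for lower. The KMF columns are red except for the 11 genes lower in KMF, ID8 replicate 3 is tinted blue for most genes and KMF replicate 3 is the darkest red for most.

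All 17 centromere and inner kinetochore genes were higher in KMF, 12 of them at least 2-fold, with a median log2 fold change of 1.61. Cenpa, the histone that marks the centromere, had 19.9, 18.7 and 12.2 FPKM in ID8 and 93.3, 85.2 and 97.9 FPKM in KMF, the largest change of the group (2.48 ± 0.18, adjusted p = 5.14e-05). Mis18a, a part of the complex that licenses the loading of Cenpa, rose by 1.19 on the log2 scale. The group was graded: Cenph, Cenpi, Cenpl, Cenpm and Cenpn rose by 1.70 to 2.09, and Cenpq, Cenpk and Cenpp by 1.55 to 1.61.

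The smallest log2 fold changes of the group were those of Cenpc1, Cenpw, Cenpt, Cenpo and Cenpb. Cenpc1, which bridges centromeric nucleosomes to the outer layer, rose by 0.84 and Cenpt, the other bridge, by 0.77. Cenpw, a partner of Cenpt, rose by 0.81 and Cenpo by 0.66, and each of these 2 calls was lost in 4 of 17 alternatives (adjusted p up to 0.0957 and 0.149). Cenpb, which binds a motif in centromeric satellite DNA, was the most abundant member in the mean over all libraries. It had 50.4, 43.7 and 54.5 FPKM in ID8 and 74.3, 75.3 and 61.7 FPKM in KMF (0.55 ± 0.11, adjusted p = 0.00588), the smallest change of the group. The histone Cenpa was below Cenpb in each ID8 library and above it in each KMF library on the FPKM scale. Cenpu, at a log2 fold change of 1.85 ± 0.37, ranged within ID8 from 0.958 and 0.798 to 0.324 FPKM, and it shares 26.7% of its exon bases with Primpol.

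In the outer kinetochore 11 of 12 genes were higher in KMF, 9 of them at least 2-fold, and the median log2 fold change was 2.16. The 4 subunits of the NDC80 complex, which grips the microtubule, rose by 2.07 to 2.61. Nuf2 had 5.56, 5.37 and 3.45 FPKM in ID8 and 26.7, 26.1 and 32.5 FPKM in KMF (2.61 ± 0.19, adjusted p = 5.39e-05). Spc24 had 17.0, 15.1 and 10.4 FPKM in ID8 and 60.5, 52.2 and 66.7 FPKM in KMF (2.12 ± 0.19, adjusted p = 0.000106). In mean FPKM the most and least abundant NDC80 subunits differed by 2.95 times in ID8 and 2.79 times in KMF, so the spread among subunits was kept while all 4 levels were higher. Cenpf, a large protein of the outer plate, went from 3.00, 2.27 and 1.68 FPKM to 13.1, 11.2 and 13.1 FPKM (2.47 ± 0.20, adjusted p = 7.27e-05).

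Other outer kinetochore parts were not uniform. The scaffold Casc5 (Knl1) rose by 2.27 on the log2 scale, and Dsn1 and Mis12, subunits of the complex that links the layers, by 0.86 and 0.45. In the SKA complex, Ska1 and Ska3 rose by 2.25 and 2.21 and Ska2 by 1.17. Zwint, which binds Casc5 and helps dock checkpoint proteins, was the exception. It had 48.9, 50.02 and 48.7 FPKM in ID8 and 33.7, 30.8 and 35.4 FPKM in KMF (-0.52 ± 0.07, adjusted p = 0.00095). The libraries of each line were close together and the lines did not overlap. The paper reports copy number loss in KMF on the chromosome that carries Zwint. Whether copy number contributed to its level was not tested. Zwint was the most abundant gene of this group in ID8, and its per-length level over that of Ndc80 was 7.75, 7.59 and 17.3 in ID8 and 1.73, 1.62 and 1.36 in KMF.

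**Figure D4:**
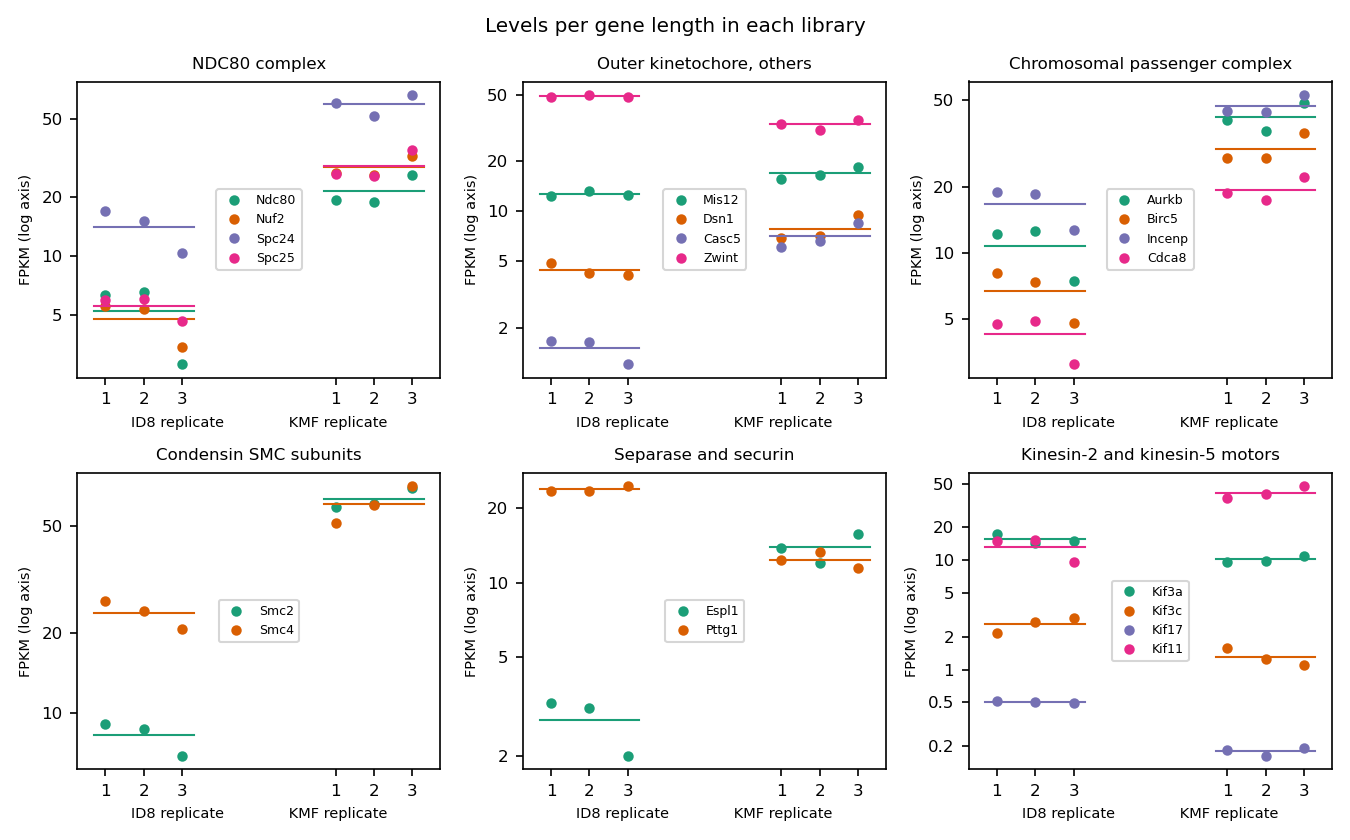
FPKM on a log axis for each library of ID8 and KMF (replicates 1 to 3), with a line at each line's mean, for subunits or partners of 6 assemblies. Zwint and Pttg1 fall between ID8 and KMF while their partners rise, and Smc2 meets Smc4 in KMF.

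All 9 spindle checkpoint genes were higher in KMF, and their log2 fold changes had a median of 1.51. Ttk (Mps1), the kinase that starts checkpoint signaling, had 2.39, 2.70 and 1.76 FPKM in ID8 and 10.2, 11.6 and 13.4 FPKM in KMF (2.40 ± 0.19, adjusted p = 6.64e-05). Bub1, a kinase docked on Casc5, had 4.62, 4.43 and 3.08 FPKM in ID8 and 15.9, 16.4 and 23.1 FPKM in KMF (2.23 ± 0.20, adjusted p = 0.000126). Bub1b and Mad2l1, which form the inhibitor of the anaphase-promoting complex, rose by 1.93 and 1.61. Bub3, the most abundant of the group and a binding partner of both Bub kinases, changed far less, from 39.7, 41.2 and 41.2 FPKM to 62.8, 59.0 and 61.8 FPKM (0.63 ± 0.07, adjusted p = 0.000248). Mad1l1, the kinetochore anchor of Mad2l1, rose by 0.82, Zw10 by 0.75 and its partner Zwilch by 1.51. Mad2l1bp, which silences the checkpoint, had the smallest log2 fold change, 0.48 ± 0.13 (adjusted p = 0.0189), and its call was lost in 5 of 17 alternatives (adjusted p up to 0.126).

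The 6 genes of the Aurora kinases and chromosomal passenger complex were all higher in KMF and all at least 2-fold. Aurkb is the kinase of the complex that corrects faulty attachments, and Incenp, Birc5 (survivin) and Cdca8 (borealin) place it. Cdca8 had 4.77, 4.90 and 3.12 FPKM in ID8 and 18.7, 17.5 and 22.3 FPKM in KMF (2.23 ± 0.19, adjusted p = 8.76e-05). Birc5 had 8.08, 7.36 and 4.78 FPKM in ID8 and 27.2, 27.1 and 35.3 FPKM in KMF (2.18 ± 0.20, adjusted p = 0.000141). Incenp was the most abundant, at 19.1, 18.6 and 12.7 FPKM and 44.2, 44.0 and 52.5 FPKM (1.52 ± 0.16, adjusted p = 0.000279). Aurkb rose by 1.99 on the log2 scale. The mean levels of the 4 subunits differed by up to 3.94 times in ID8 and 2.41 times in KMF. The centrosomal kinase Aurka rose by 1.55 and its activator Tpx2 by 1.88.

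Spindle and midzone genes fell into a high and a modest class. Ckap2l, a spindle microtubule protein, had 6.08, 7.01 and 3.88 FPKM in ID8 and 34.3, 34.4 and 42.5 FPKM in KMF (2.75 ± 0.22, adjusted p = 6.68e-05). Prc1, which bundles the midzone microtubules and was the most abundant of the group, had 12.9, 13.5 and 8.08 FPKM in ID8 and 61.5, 58.7 and 65.9 FPKM in KMF (2.47 ± 0.19, adjusted p = 6.55e-05), and 11.1% of its exon bases are shared with Rccd1. Nusap1 and Ckap2 rose by 2.44 and 2.07. The 5 listed subunits of augmin (Haus genes), which nucleates microtubules within the spindle, rose by 0.48 to 1.23. The calls of Haus1 and Haus8 were lost in 3 and 1 of 17 alternatives (adjusted p up to 0.0901 and 0.0562). Among the subunits Haus3 rose most and Haus1 least, and no augmin subunit reached the change of any of the 4 other genes.

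At the exit from metaphase, separase and its inhibitor went in opposite directions. Espl1, the separase that cuts cohesin, had 3.28, 3.11 and 2.0 FPKM in ID8 and 13.8, 12 and 15.8 FPKM in KMF (2.35 ± 0.20, adjusted p = 8.63e-05). Pttg1, the securin that holds it inactive, had 23.5, 23.5 and 24.5 FPKM in ID8 and 12.4, 13.3 and 11.5 FPKM in KMF (-0.90 ± 0.10, adjusted p = 0.000258). Its log2 fold change stayed between -1.02 and -0.83 over all 17 alternatives, each of which kept the call. The RNA level of Pttg1 per length was 7.17, 7.55 and 12.2 times that of Espl1 in the ID8 libraries and 0.896, 1.10 and 0.729 times in the KMF libraries. The lines did not overlap in this ratio, although it concerns RNA and not the proteins, which were not analysed here. The paper reports copy number gain in KMF on the chromosome that carries Espl1. Whether copy number contributed to this ratio, or to the levels of other genes of the set, was not tested.

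Protectors of cohesin followed separase. Sgol1 (shugoshin), which guards centromeric cohesin, had 2.45, 2.18 and 1.22 FPKM in ID8 and 8.49, 9.54 and 12.6 FPKM in KMF (2.42 ± 0.27, adjusted p = 0.000327). Sgol2 rose by 2.27, with 35.0% of its exon bases shared with Kctd18, and Cdca5 (sororin), which stabilizes cohesin on replicated DNA, by 1.94. Both SMC subunits of the cohesin ring are in the set. Smc1a had 36.1, 31.8 and 32.4 FPKM in ID8 and 43.6, 42.3 and 47.3 FPKM in KMF (0.45 ± 0.08, adjusted p = 0.00272), and Smc3 had a log2 fold change of 0.23 ± 0.06 (adjusted p = 0.0212), a call lost in 9 of 17 alternatives (adjusted p up to 0.234). The ring subunit Rad21, which lies outside the set, had a log2 fold change of 0.74 ± 0.09 (adjusted p = 0.000562).

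The 9 condensin and SMC5-SMC6 genes were all higher in KMF, and their median difference was 1.47 on the log2 scale. Smc2 had the largest change of all 103 genes, from 9.15, 8.75 and 6.95 FPKM in ID8 to 58.8, 60.6 and 69.2 FPKM in KMF (2.96 ± 0.13, adjusted p = 7.38e-06), that is 7.79-fold. The gene lies at chr4:52439243-52488260 on GRCm38. Smc4, its obligate partner in both condensins, rose by only 1.39 ± 0.13, from 26.2, 24.1 and 20.7 FPKM to 51.2, 60.1 and 70.3 FPKM. The ratio of Smc2 to Smc4 in FPKM was 0.350, 0.363 and 0.337 in ID8 and 1.15, 1.01 and 0.984 in KMF. The partners were thus unequal in each ID8 library and near equal in each KMF library.

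Condensin I, which reaches chromosomes after the nuclear envelope opens, had larger fold changes than condensin II, which acts from prophase. Its subunits Ncapg, Ncaph and Ncapd2 rose by 2.47, 2.30 and 1.73, and the condensin II subunits Ncapg2, Ncapd3 and Ncaph2 by 1.47, 1.33 and 0.83, so that each condensin I subunit exceeded each condensin II subunit, a difference that was not tested. Ncapg had 2.98, 3.09 and 2.04 FPKM in ID8 and 12, 13.4 and 18.4 FPKM in KMF (adjusted p = 9.81e-05), and it shares 13.4% of its exon bases with Lcorl. Ncaph2, the most abundant of the group, had 60.1, 62.4 and 57.9 FPKM in ID8 and 102, 95.6 and 113 FPKM in KMF (adjusted p = 0.000191). Of the exon bases of Ncaph2, 19.7% are shared with Sco2 and 12.7% with Tymp. The kleisin ratio of Ncaph to Ncaph2 was 0.122, 0.127 and 0.0954 in ID8 and 0.328, 0.303 and 0.327 in KMF. Smc6, of the complex for DNA repair, rose by 0.33 ± 0.07, a call lost in 2 of 17 alternatives (adjusted p up to 0.055).

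The last 7 genes matched the symbols by name and have varied roles. Cdca2, which brings a phosphatase to chromatin at mitotic exit, had 2.75, 3.16 and 2.11 FPKM in ID8 and 11.2, 12.2 and 15.3 FPKM in KMF (2.31 ± 0.18, adjusted p = 7.11e-05). Cdca3, a trigger of mitotic entry, had 16.2, 15.3 and 10.3 FPKM in ID8 and 52.5, 46.6 and 63.1 FPKM in KMF (2.0 ± 0.19, adjusted p = 0.000149). Cdca7, Cdca4 and Cdca7l rose by 1.17, 0.83 and 0.74, and the call of Cdca7l was lost in 3 of 17 alternatives (adjusted p up to 0.110). Cenpj, a centriole protein and no kinetochore part, had a log2 fold change of 0.36, and its call was lost in 15 of 17 alternatives (adjusted p up to 0.198). Aurkaip1, a mitochondrial ribosome protein that also binds Aurka, went from 58.6, 56.3 and 64.0 FPKM to 47.9, 45.8 and 46.8 FPKM (-0.31 ± 0.07, adjusted p = 0.0124), and the call was lost without KMF replicate 2, without KMF replicate 3 and without both replicate 3 libraries, with adjusted p from 0.000444 to 0.0854 over the alternatives.

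Within each line the genes also moved together, which the means of the lines do not show. ID8 replicate 3 was the lowest ID8 library in CPM for 82 of the 103 genes (79.6%), against 37.9% of all listed genes. KMF replicate 3 was the highest KMF library for 84 of them (81.6%), against 35.9% of all listed genes. The median gene lay 0.39 below the mean of the other ID8 libraries on the log2 scale in the former and 0.25 above the other KMF libraries in the latter, and with TMM scaling the counts were 84 and 83. Of the mitotic kinesins, 14 of 15 were lowest in ID8 replicate 3 and all 15 were highest in KMF replicate 3. All 6 Aurora and passenger genes behaved the same way in both lines. The cytoplasmic kinesins did so less often, with 7 of 12 lowest in ID8 replicate 3 and 5 of 12 highest in KMF replicate 3, a difference that was not tested. These 2 libraries came from the highest passage of each line, 35 and 22. The part of passage in the spread was not tested.

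**Figure D5:**
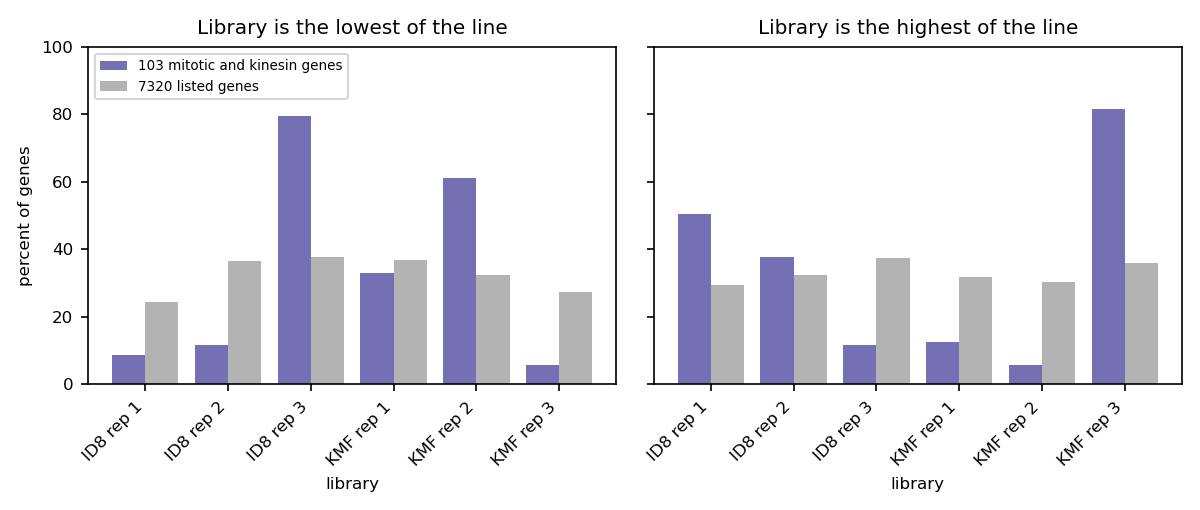
Percent of genes (vertical axis) for which each library is the lowest of its line (left) or the highest of its line (right) in CPM, for the 103 genes and for all 7320 listed genes. ID8 replicate 3 is the lowest for 79.6% of the genes and KMF replicate 3 the highest for 81.6%, against 37.9% and 35.9% of all listed genes.

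Genes of the same pathway outside the set were taken from fixed lists. Of 31 regulators of mitotic entry and exit, 26 were listed, 23 higher and 3 lower in KMF, and the median of their log2 fold changes was 1.72. Ccna2 (cyclin A) rose by 2.77 ± 0.20 and Ube2c, the ubiquitin-conjugating enzyme of the anaphase-promoting complex, by 2.69 ± 0.16. The listed subunits of that complex were split, with Anapc5, Anapc1 and Cdc23 higher at 0.62, 0.48 and 0.26 and Anapc4, Cdc26 and Anapc10 lower at -0.24, -0.40 and -0.51. All 30 listed of 35 other kinetochore, spindle and cytokinesis genes were higher, with a median of 2.11, led by Depdc1b at 2.71 ± 0.24 and Fam83d at 2.54 ± 0.17. Of 13 cohesin genes outside the set 9 were listed, 5 higher and 4 lower, again near the shares of all fitted genes. Rad21 was among the higher ones. The lower ones were Stag2 at -0.37, the loader Mau2 at -0.25, the deacetylase Hdac8 at -0.91 and the meiotic subunit Rec8, which had 2.14, 2.26 and 0.446 FPKM in ID8 and 1 or 2 counts in each KMF library.

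Dynein, the motor that opposes the kinesins, and its cofactor dynactin were represented by 11 of 24 genes. Of these 6 were higher and 5 lower, which is near the shares of all fitted genes (45.4% and 47.5%), with a median log2 fold change of 0.30. Dctn3 rose by 1.03 ± 0.10 and Nde1 by 0.72 ± 0.08, and Dynll2, Dctn6, Dync1i2, Actr1a and Pafah1b1 had log2 fold changes of -0.67, -0.65, -0.34, -0.25 and -0.21. Of 17 regulators known to act on late cell cycle promoters, 12 were listed, 10 higher and 2 lower. Foxm1, an activator of mitotic genes, had 7.36, 7.18 and 5.68 FPKM in ID8 and 30.5, 31.6 and 38.7 FPKM in KMF (2.36 ± 0.14, adjusted p = 2.18e-05). Mybl2 (B-Myb), which binds at the CHR with the MuvB complex, had 2.59, 2.64 and 1.40 FPKM in ID8 and 7.83, 8.58 and 11.4 FPKM in KMF (2.10 ± 0.26, adjusted p = 0.000558). Rbl2 (p130), a part of the complex that represses these promoters in resting cells, was lower at -0.72 ± 0.09, as was the dimer partner Tfdp2 at -0.30 ± 0.08. The libraries with the lowest and highest levels of Foxm1 and Mybl2 within each line were again ID8 replicate 3 and KMF replicate 3.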

How the data were processed

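RNA from 3 ID8 and 3 KMF tumorsphere cultures was made into poly-A libraries and sequenced as paired-end reads. The deposited table gives raw, unnormalized read counts of each listed gene in every library, and FPKM values, for which the authors divided by the deposited gene length and by the fragments assigned in that library. It also holds the authors' p-values, fold changes and mean per line. Of these, the deposited p-values served to show that the table was selected and to recover the number of genes tested, 17359, over which p-values were adjusted here, and the rest were not used. The submitters' processing notes name STAR 2.5, CASAVA 1.8, DESeq2 and mm10, whereas the study's methods name TopHat2. The counting tool, annotation release and strand setting are not given in the sources used here.

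Library totals were recovered from counts, FPKM and gene length. Counts of all 7320 listed genes were fitted with edgeR 4.0.16 (R 4.3.3, TMM scaling, filterByExpr, quasi-likelihood test, two-sided, no covariate), with Benjamini-Hochberg adjustment over 17359 genes. On simulated data of 6895 genes, 198 of them changed by 1 log2 unit, the fit recovered 74.7% of these and called 6 unchanged genes. Most genes in those data were unchanged, while 45.4% of the genes fitted here were called higher in KMF and 47.5% lower. How the fit behaves on a table selected in this way was not tested. Libraries of a line differed by more than sampling noise (chi-square per degree of freedom of at least 19.9). The labels call the RNA samples independent, and p-values measure the spread between cultures of 1 line. The genes, groups and lists were chosen with earlier results of these data known. Named were, per group, the 2 called genes with the largest change, the most abundant gene and every gene lower in KMF, with Spc24, and per pathway list the 2 largest changes and every lower gene, mostly with the log2 fold change alone. Other genes named complete their complexes or partner pairs and were chosen after their values were seen. A gene that this rule also takes is not reported here, though the counts include it. Shared exon bases come from GENCODE M21. Alternatives were other scalings and filters, DESeq2 1.42.0, limma 3.58.1 on log2 FPKM with pseudocounts of 1 and 0.1, a replicate block, adjustment over the fitted genes alone, a shorter promoter window and leaving out libraries.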

Additional observations from a re-analysis of the deposited data

How the results depend on the processing

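No gene of the set changed direction under any alternative. The counts of 92 higher and 11 lower genes stayed within 1.5 times in all of them: 91 and 11 with DESeq2, 90 and 11 on library totals alone, 89 and 11 with DESeq2 size factors or a minimum of 10 counts in every library, 92 and 11 with no filter or with adjustment over the fitted genes alone, 83 and 11 with upper quartile scaling, 88 and 11 with limma on log2(FPKM + 0.1) and 87 and 8 with limma on log2(FPKM + 1), where 100 genes were fitted. The share of all fitted genes called higher was 45.4% in the analysis reported and 34.0% to 49.7% in the alternatives. Upper quartile scaling shifted the log2 fold changes of all genes, whose median went from -0.23 to -0.35, and the median of the set from 1.69 to 1.57. The median of all genes was positive with a minimum of 10 counts in every library (0.20) and with limma on log2(FPKM + 1) (0.20), where fewer genes were fitted, and negative in the other alternatives. The median of the set moved to 1.45 with limma on log2(FPKM + 1), which compresses low values, and to 1.40 without both replicate 3 libraries. That limma fit also lowered the log2 fold changes of single genes, among them Sgol2 to 1.52, Cenpu to 1.04, Casc5 to 1.68 and Ska1 to 1.65, with their calls kept. Leaving out each library in turn gave 84 to 90 higher genes, 8 to 11 lower genes and medians of 1.5 to 1.77, lowest without ID8 replicate 3. Deviations of samples with the same replicate number had correlations of 0.074, -0.088 and 0.108, against -0.203 to 0.181 for the other combinations. These values gave no sign of pairing, but with 3 libraries per line they cannot exclude it. A replicate block gave 87 higher and 10 lower genes, and the calls lost were those of Cenpj, Cenpo, Kif21a, Kif21b, Kif7 and Smc3. With promoters from 150 bases before the start, 46.1% in place of 49.4% of the set's promoters held a CHR, and 47.9% did among those whose start lies within 100 bases of the deposited one. Depth limits most the genes with low counts, such as Kif17 and Kif21b, which stayed under 1 FPKM in every library.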
